A study of Mus musculus with 34 samples.

Results

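The genes described here are those of cholesterol and fatty acid synthesis with their regulators: 35 gene symbols, of which 32 had a probe set annotated to that gene alone, out of 22180 genes measured. Where a gene had several such probe sets, which among these genes was the case for 1 (Scap), that with the highest average signal across the arrays was taken. Acat2, Idi1 and Scd2 are not analysed here. The measured genes fall into 6 of the mevalonate pathway, 11 of the steps from squalene to cholesterol, 5 that control sterol sensing and transport, 7 of fatty acid synthesis and 3 of the oxysterol response and cholesterol efflux.

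Cholesterol is made from acetyl-CoA through mevalonate, farnesyl diphosphate, squalene and lanosterol, and fatty acids are made from the same precursor by carboxylation, chain synthesis, elongation and desaturation. The genes of both routes are known targets of the SREBP transcription factors, which Scap carries out of the endoplasmic reticulum when sterols are scarce and which Insig proteins hold back when sterols are plentiful. The liver X receptors respond to oxysterols, the oxidised products of cholesterol, and switch on the exporters Abca1 and Abcg1.

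Dendritic cells (DCs), which present antigen to T cells, were sorted by flow cytometry from the spleens of C57BL/6 mice, and their RNA was measured on 34 arrays. In 1 experiment, CD8+ and CD8- DCs, the main conventional DC subsets of the spleen, were sorted from wild-type (WT) mice and from mice labelled Mst1/2-/- (Mst1/2-KO below, lacking the Hippo pathway kinases Mst1 and Mst2), with 4 arrays in each of the 4 groups. In another, total DCs were taken from WT (4 arrays) and Mst1/2-KO mice (3 arrays). No stimulus is labelled for either experiment. In experiment 1, total DCs labelled as stimulated with an antibody to CD40 (anti-CD40), a receptor that matures DCs, came from mice labelled Rag1-/- (4 arrays), which lack mature T and B cells, and Rag1-/-/p38-/- (3 arrays). In experiment 2, anti-CD40 total DCs came from WT (1 array) and Rag1-/- mice (2 arrays), and non-stimulated total DCs from Rag1-/- mice (1 array). Ages, the cell type in which the kinases were deleted and whether each array stands for its own animal are not given in the labels, so the p-values measure the spread between arrays, which may be technical. Values are log2 signals, comparable within an experiment and not between experiments. In RNA from sorted populations, fewer cells of a type and less RNA per cell cannot be told apart.

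Stk4, which encodes Mst1, lay between 7.39 and 7.67 in Mst1/2-KO CD8- DCs against 8.15 to 8.44 in WT, between 7.22 and 7.64 against 8.26 to 8.46 in CD8+ DCs, and between 7.32 and 7.50 against 8.44 to 8.58 in total DCs. Mapk14, which encodes p38 alpha, was not lower on the arrays labelled Rag1-/-/p38-/- (8.38 to 8.54) than on the Rag1-/- arrays (7.88 to 8.48), and whether its probe set lies in the deleted part is not known. Stk3, which encodes Mst2, and Rag1 had no probe set annotated to them alone, so neither was checked. All 15 measured CD8+ DC markers were called higher in WT CD8+ than in WT CD8- DCs. Of 14 CD8- DC markers, 12 were called lower and 2 higher. In the groups of 3 or 4 arrays, each array correlated with the mean of the others of its group at 0.991 or above over all genes. The arrays of experiment 2 were not checked this way.

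Promoter windows from RefSeq (GRCm38.p6), cut to the 250 bases before the gene's start, were found for 25 of the 32 measured genes. The 4 printed are Hmgcs1 and Msmo1 of the sterol route, and Elovl6 and Fads2 of fatty acid synthesis. Of the genes called higher in Mst1/2-KO CD8- DCs (below), Hmgcs1 and Msmo1 were those whose windows held TCACNCCA. Fdps and Sqle had no window. Capitals mark matches, on either strand, to TCACNCCA (a spelling of the sterol regulatory element, of which TCACNCCAC is the longer form and overlaps it), CACGTG (the E-box that SREBP-1 also binds) or CCAAT (the element of NF-Y).
Hmgcs1, chr13:119690101-119690350, + strand: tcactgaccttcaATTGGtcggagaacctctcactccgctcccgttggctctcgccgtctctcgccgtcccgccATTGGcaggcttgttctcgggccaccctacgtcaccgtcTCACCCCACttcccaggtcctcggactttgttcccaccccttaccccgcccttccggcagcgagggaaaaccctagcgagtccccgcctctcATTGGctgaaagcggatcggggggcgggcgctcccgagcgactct
Msmo1, chr8:64733579-64733828, - strand: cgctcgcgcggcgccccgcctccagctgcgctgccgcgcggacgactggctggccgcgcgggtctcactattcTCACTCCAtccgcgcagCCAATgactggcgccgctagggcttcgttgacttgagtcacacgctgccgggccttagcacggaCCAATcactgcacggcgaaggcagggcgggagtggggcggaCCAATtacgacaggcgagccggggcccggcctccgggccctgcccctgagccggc
Elovl6, chr3:129532136-129532385, + strand: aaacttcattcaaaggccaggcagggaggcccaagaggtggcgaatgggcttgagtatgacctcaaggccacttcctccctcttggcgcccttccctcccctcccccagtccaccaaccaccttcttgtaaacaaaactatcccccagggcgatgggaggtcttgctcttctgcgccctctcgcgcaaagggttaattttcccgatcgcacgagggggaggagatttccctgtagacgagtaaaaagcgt
Fads2, chr19:10101504-10101753, - strand: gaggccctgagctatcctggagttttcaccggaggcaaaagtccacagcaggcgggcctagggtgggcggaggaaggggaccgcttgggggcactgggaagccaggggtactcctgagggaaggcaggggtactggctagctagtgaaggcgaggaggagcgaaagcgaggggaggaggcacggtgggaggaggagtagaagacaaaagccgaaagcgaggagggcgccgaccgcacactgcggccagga

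The window of Hmgcs1 held the longer form of the sterol element, which 1.05% of 32851 windows of that length hold, and those of Hmgcs1, Msmo1 and Srebf2 held the shorter form, which 3.67% hold. CACGTG stood in 6 of the 25 windows (Abca1, Dhcr7, Hsd17b7, Insig1, Sc5d and Scap), against 6.02% of all windows. CCAAT stood in 18 of the 25, against 33.8% of all windows: in 10 of the 13 with a window among genes called higher in Mst1/2-KO CD8- DCs (below) and in 8 of the 12 others. None of the 4 motifs was found in the windows of Elovl6 and Fads2. These matches describe letters and are not evidence of binding.

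Whether loss of Mst1 and Mst2 changed lipid synthesis genes was asked first in CD8- DCs. There, 18 of the 32 genes were called higher in Mst1/2-KO than in WT (limma, Benjamini-Hochberg adjusted p under 0.05 over all genes) and 0 lower, 24 passing an unadjusted p under 0.05, all of them higher, against 18.1% of all genes. Over all 22180 genes, 6.68% were called, 3.9% higher and 2.79% lower. The median change of the 32 genes was 0.425 on the log2 scale, against 0.0016 over all genes. For 18 of the 32, all 4 Mst1/2-KO arrays lay above all 4 WT arrays, and for 0 below them, against 12% of all genes not overlapping in either direction. The rises were in enzymes of both routes: 12 of the 17 sterol synthesis enzymes and 5 of the 7 fatty acid synthesis genes, with 1 of 5 sterol control genes and 0 of 3 efflux genes. The 17 are the 6 genes of the mevalonate pathway, with Ggps1 of the prenylation branch among them, and the 11 from squalene to cholesterol. Without replicate 2 of WT CD8- DCs, the array that was the lowest of its group for 11 of the 17 sterol enzymes, 10 of the 32 were called. Over all alternatives tried, 10 were always called: Hmgcs1, Fdps, Sqle, Cyp51, Tm7sf2, Ebp, Acly, Fasn, Elovl6 and Fads2.

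In the mevalonate pathway, Fdps, Hmgcs1 and Mvd rose. Fdps, which makes farnesyl diphosphate, the branch point to sterols and protein prenylation, read 8.09, 7.72, 8.42 and 8.15 on the Mst1/2-KO arrays and 7.26, 6.51, 6.60 and 7.23 on the WT arrays. All 4 Mst1/2-KO arrays lay above the highest WT array, and the change was 1.19 ± 0.181 (SE), a 2.29-fold rise (limma adjusted p = 0.000626). Hmgcs1, which makes HMG-CoA at the entry of the pathway, read 8.60, 8.73, 9.12 and 8.75 against 8.12, 7.62, 7.72 and 8.34. Its groups were again apart, by 0.85 ± 0.155 (limma adjusted p = 0.00245). Mvd, the decarboxylase that yields isopentenyl diphosphate, was higher by 0.42 ± 0.103 (limma adjusted p = 0.0183). Its call was lost without WT replicate 2 or Mst1/2-KO replicate 2 or 3 (limma adjusted p = 0.0524 to 0.0685). Of the kinases of the pathway, Pmvk differed by 0.43 (limma adjusted p = 0.0598, but called without WT replicate 1, at 0.0238, or Mst1/2-KO replicate 2, at 0.0261, and under 4 of 9 settings, at 0.0127 to 0.041) and Mvk by 0.19. Ggps1, which lengthens farnesyl to geranylgeranyl diphosphate for prenylation, differed by 0.02.

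From squalene to cholesterol, 9 of 11 enzymes rose, by 0.41 to 0.90. Sqle, the squalene epoxidase at a rate-limiting step, read 7.22, 7.14, 8.02 and 7.53 in Mst1/2-KO and 6.74, 6.39, 6.35 and 6.85 in WT. The genotypes did not overlap, replicate 3 of Mst1/2-KO being the highest, and the change was 0.90 ± 0.161 (limma adjusted p = 0.00225). Fdft1, which joins farnesyl units into squalene, rose by 0.61 ± 0.167, and Tm7sf2, a sterol C14 reductase, by 0.60 ± 0.126. Cyp51, the lanosterol demethylase, rose by 0.55 ± 0.111. Lss, which closes the ring to lanosterol, rose by 0.52 ± 0.149, and Msmo1, a C4 methyl oxidase, by 0.50 ± 0.144. The late enzymes followed: Dhcr7, the last reductase to cholesterol, by 0.47 ± 0.117, Sc5d, a desaturase, by 0.47 ± 0.108, and Ebp, the sterol isomerase, by 0.41 ± 0.0739. Nsdhl and Hsd17b7, which act with Msmo1 in removing the C4 methyl groups, each differed by 0.35, with limma adjusted p of 0.0507 and 0.22.

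Several of these calls were lost on leaving out single arrays of CD8- DCs. Those of Lss (limma adjusted p = 0.0479) and Msmo1 (0.0469) were each lost on leaving out 7 of the 8 arrays 1 at a time, all but WT replicate 4 for Lss and all but Mst1/2-KO replicate 2 for Msmo1, with limma adjusted p of 0.0557 to 0.148 for both. That of Fdft1 was lost without WT replicate 1, 2 or 3 or Mst1/2-KO replicate 3 or 4 (limma adjusted p = 0.0626 to 0.137). Dhcr7 was lost without WT replicate 2 or Mst1/2-KO replicate 3 or 4 (limma adjusted p = 0.0609 to 0.0814), and Sc5d without WT replicate 2 (limma adjusted p = 0.0563). Nsdhl gained a call without WT replicate 3 or Mst1/2-KO replicate 2 (limma adjusted p = 0.00866 and 0.0497) and under 3 of 9 settings (0.0321 to 0.0416), and Hsd17b7 without WT replicate 1 (limma adjusted p = 0.0339).

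Of the 5 control genes 1 was called. Stard4, which carries cholesterol between membranes, was called higher by 0.46 ± 0.123 (limma adjusted p = 0.0318), with 5.95, 5.75, 6.02 and 5.88 in Mst1/2-KO and 5.78, 5.36, 5.13 and 5.49 in WT CD8- DCs. Its groups overlapped through 1 high WT array, and the call was lost without WT replicate 2, 3 or 4 or Mst1/2-KO replicate 1, 3 or 4 (limma adjusted p = 0.0582 to 0.104). Srebf2, the sterol-responsive SREBP gene, read 9.20, 9.25, 9.36 and 9.26 against 9.10, 9.05, 9.19 and 9.14. These arrays did not overlap either, but the difference was 0.15 ± 0.0633 and was not called (limma adjusted p = 0.216). Srebf1, which encodes the SREBP of fatty acid genes, differed by 0.15, Insig1, the sterol-regulated SREBP retention factor, by 0.34 (limma adjusted p = 0.259), and Scap by -0.15.

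In fatty acid synthesis, Fads2, the delta-6 desaturase of polyunsaturated fatty acids, had the largest change of the 32 genes. It read 6.46, 5.96, 6.65 and 7.06 in Mst1/2-KO and 5.22, 4.41, 4.40 and 5.04 in WT CD8- DCs. The lowest Mst1/2-KO array was above the highest WT array, and the change was 1.76 ± 0.217, or 3.40-fold (limma adjusted p = 0.000114). Elovl6, which elongates palmitate, read 5.74, 5.37, 5.67 and 5.91 against 4.70, 4.27, 4.32 and 4.97. Its groups were apart as well, by 1.11 ± 0.174 or 2.16-fold (limma adjusted p = 0.000797). Fasn, the fatty acid synthase, rose by 0.59 ± 0.101, and Acly, which supplies cytosolic acetyl-CoA from citrate to both routes, by 0.38 ± 0.0741. Fads1, the delta-5 desaturase, rose by 0.85 ± 0.214 (limma adjusted p = 0.0225). One WT array of it stood low at 4.46, next to 5.39, and the call was lost without that array (WT replicate 2) or Mst1/2-KO replicate 1 or 4 (limma adjusted p = 0.0637 to 0.0784). Acaca, the acetyl-CoA carboxylase that makes malonyl-CoA, differed by 0.29 (limma adjusted p = 0.122). Scd1, the stearoyl-CoA desaturase, differed by 0.03 between means of 4.09 and 4.06.

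The efflux side gave no call in CD8- DCs. Nr1h3, the gene of LXR alpha, read 5.11, 5.02, 5.05 and 5.24 in Mst1/2-KO and 5.13, 5.02, 4.87 and 5.40 in WT. The Mst1/2-KO arrays lay within the range of the WT arrays. Those of Abca1 (-0.11 ± 0.116) and Abcg1 (-0.12 ± 0.125), both cholesterol exporters, overlapped too. Of 22 other measured sterol genes, 3 rose and 3 fell. Those that rose were Acss2, an acetyl-CoA synthetase (0.88), Scarb1, a lipoprotein receptor (0.84), and Tmem97, a sterol-regulated membrane protein (0.47). Those that fell were Apoe, the lipoprotein component (-0.66), Cyp27a1, the sterol 27-hydroxylase (-0.42), and Lipa, the lysosomal acid lipase (-0.37), the last 2 being named after their values were seen. Acss2 was at the threshold (limma adjusted p = 0.05, and 0.0696 to 0.159 without WT replicate 2, 3 or 4 or Mst1/2-KO replicate 2, 3 or 4), and Apoe was lost without WT replicate 3 (limma adjusted p = 0.051). Of 26 other measured fatty acid genes, 1 rose, Dgat2, which makes triglyceride (0.76, limma adjusted p = 0.0124, and 0.0508 without Mst1/2-KO replicate 4), and 0 fell.

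**Figure D1:**
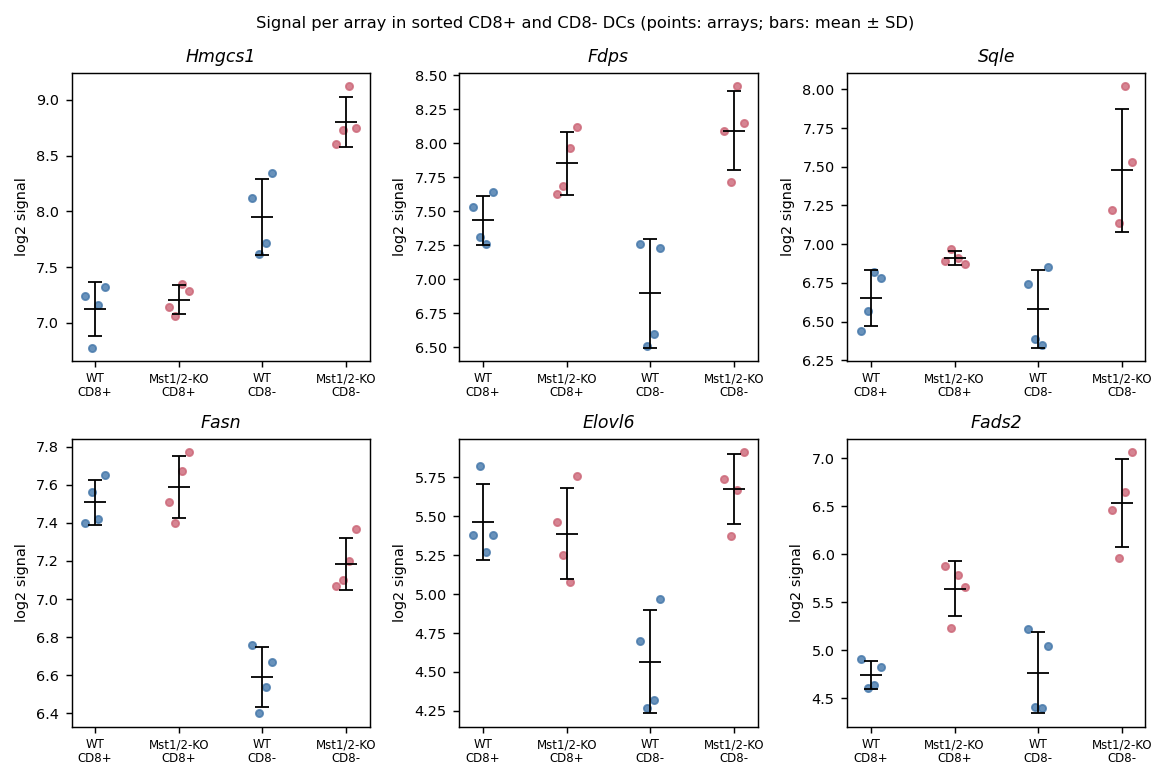
Log2 signal of 6 lipid synthesis genes on each array of the 4 sorted DC groups, 4 arrays a group, with points for arrays and bars for the mean ± SD. For all 6 genes, every Mst1/2-KO CD8- array lies above every WT CD8- array. Fdps, Sqle, Fasn and Elovl6 have their lowest mean in WT CD8- DCs.

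Other gene lists moved with genotype in the same CD8- arrays. Of 25 proliferation genes, 21 rose and 0 fell (median change 0.578), their mean signal being 7.82 to 8.16 in Mst1/2-KO and 7.37 to 7.48 in WT. Of 11 plasmacytoid DC markers, 4 rose and 0 fell, with a log2 summed signal of 12.10 to 12.46 against 10.81 to 11.35, led by Cox6a2 (3.73) and Tcf4 (1.08). Of 15 CD8+ DC markers 7 rose and 1 fell (summed signal 12.47 to 12.89 against 12.12 to 12.42), and of 14 CD8- DC markers 3 rose and 7 fell (12.63 to 12.83 against 13.20 to 13.38), the largest falls being those of Cd4 (-2.04) and Jag1 (-1.84). Of 10 B cell markers 3 fell, of 10 T cell and 10 neutrophil markers 1 each fell, of 15 macrophage and monocyte markers 1 rose and 1 fell, and of 9 NK cell and 2 erythroid markers none was called. The mean of 3 Y-linked genes was 4.23 to 4.96 in Mst1/2-KO and 5.13 to 5.37 in WT. Xist lay between 6.79 and 7.03 in Mst1/2-KO and between 6.75 and 7.01 in WT. The part of these in the lipid gene result was not tested. The 17 sterol enzymes averaged 6.30 to 6.45 in WT CD8+, 6.29 to 6.57 in WT CD8- and 6.84 to 7.14 in Mst1/2-KO CD8- DCs. The 7 fatty acid synthesis genes averaged 6.15 to 6.29, 5.25 to 5.75 and 5.99 to 6.48 in the same groups, so that WT CD8+ DCs lay above WT CD8- DCs and within the range of Mst1/2-KO CD8- DCs.

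In CD8+ DCs, 0 of the 32 genes were called in either direction between Mst1/2-KO and WT by limma, 3 being higher and 1 lower at an unadjusted p under 0.05, which 10.6% of all genes passed. Over all genes 0.888% were called, 0.234% higher and 0.654% lower. The median change of the 32 was 0.0403, against 0.0046 over all genes. Among sterol enzymes, Fdps read 7.63, 7.69, 7.97 and 8.12 in Mst1/2-KO and 7.53, 7.31, 7.26 and 7.64 in WT, overlapping by 1 array (0.42 ± 0.181, limma adjusted p = 0.406). Sqle read 6.89, 6.97, 6.91 and 6.87 against 6.44, 6.57, 6.82 and 6.78, so that its arrays did not overlap although the difference was 0.26 ± 0.161 (limma adjusted p = 0.633). Arrays did not overlap for 2 of the 32 genes, a share close to the 6.33% of all genes.

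The other non-overlapping gene in CD8+ DCs was Fads2, as in CD8- DCs. It read 5.88, 5.23, 5.78 and 5.66 in Mst1/2-KO and 4.91, 4.61, 4.64 and 4.83 in WT, every Mst1/2-KO array being higher. The change was 0.90 ± 0.217, a 1.86-fold difference just outside the threshold (limma adjusted p = 0.0648), and it was called in 4 of 9 other settings (limma adjusted p = 0.00879 to 0.045) and without Mst1/2-KO replicate 2 (limma adjusted p = 0.0393). Hmgcs1 differed by 0.08, Elovl6 by -0.08, Fads1 by -0.01 and Fasn by 0.08. Scd1 (-0.38, limma adjusted p = 0.55), Insig1 (-0.23) and Abcg1 (-0.35, limma adjusted p = 0.269) had the most negative differences. Of the other sterol genes none of 22 was called, and of the other fatty acid genes 1 of 26, Lpin1, a phosphatidate phosphatase, which fell by 0.53 on the log2 scale (limma adjusted p = 0.0417, and 0.0502 to 0.139 on leaving out 6 of the 8 arrays, all but replicate 1 of each genotype). Proliferation genes were higher here too, 5 of 25 called and a median change of 0.50, while of the markers of other cell types 1 CD8- DC marker was called.

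**Figure D2:**
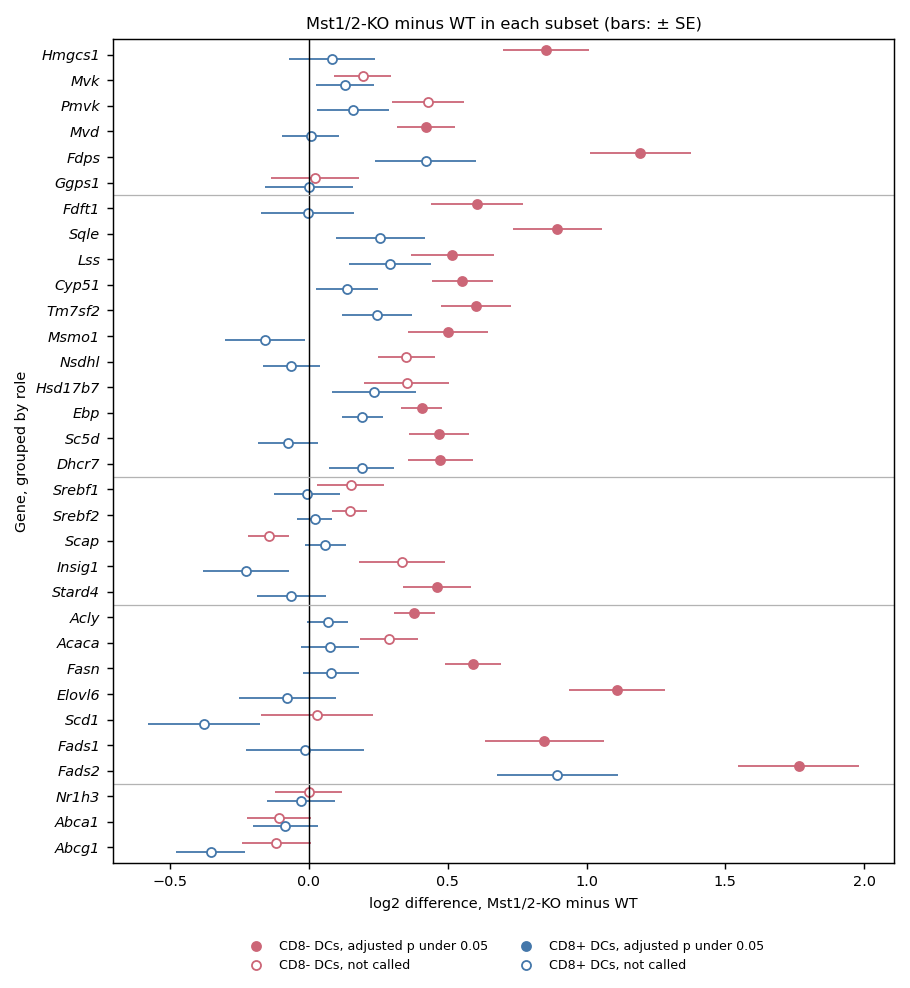
Log2 difference between Mst1/2-KO and WT for the 32 genes in CD8- DCs (red) and CD8+ DCs (blue), bars giving the SE and filled points an adjusted p under 0.05. The 18 called genes are all in CD8- DCs and all to the right of 0, while the 3 genes of the lowest block, Nr1h3, Abca1 and Abcg1, lie at or left of 0 in both.

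Whether the genotype effect differed between the subsets was tested as an interaction. The change was more positive in CD8- than in CD8+ DCs for 30 of the 32 genes, with a median difference of 0.382 against 0.00051 over all genes, and 16 passed an unadjusted p under 0.05, all in that direction, against 9.15% of all genes in either direction. After adjustment 1 gene was called, Elovl6, and 0.559% of all genes were. The change of Elovl6 was larger in CD8- DCs by 1.19 ± 0.246 (limma adjusted p = 0.0348). This call was lost on leaving out any 1 of 10 of the 16 arrays: replicates 2 and 4 of WT CD8+, 2 and 3 of WT CD8-, 1, 2 and 3 of Mst1/2-KO CD8+, or 1, 3 and 4 of Mst1/2-KO CD8- (limma adjusted p = 0.0634 to 0.0855). Next came Fasn (0.51, limma adjusted p = 0.131), Sc5d (0.55, 0.135), Hmgcs1 (0.77, 0.146) and Msmo1 (0.66, 0.199), none of them called. With a block for each genotype and replicate number, Hmgcs1 (limma adjusted p = 0.0188) and Fdps (0.0452) were called with Elovl6, which makes 3. For the other genes called in CD8- DCs, a difference between the subsets was therefore not shown. Of the lists named above, proliferation genes had a median difference of 0.053 with 0 of 25 called. Of 11 plasmacytoid DC markers 2 were called more positive in CD8- DCs (Cox6a2 and Tcf4). Of 14 CD8- DC markers 3 were called more negative there (Tlr7, Tlr5 and Esam), as were 1 of 10 B cell markers (Cr2) and 1 of 15 macrophage and monocyte markers (Adgre1), Esam being named after its value was seen. Their part in the difference was not tested.

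**Figure D3:**
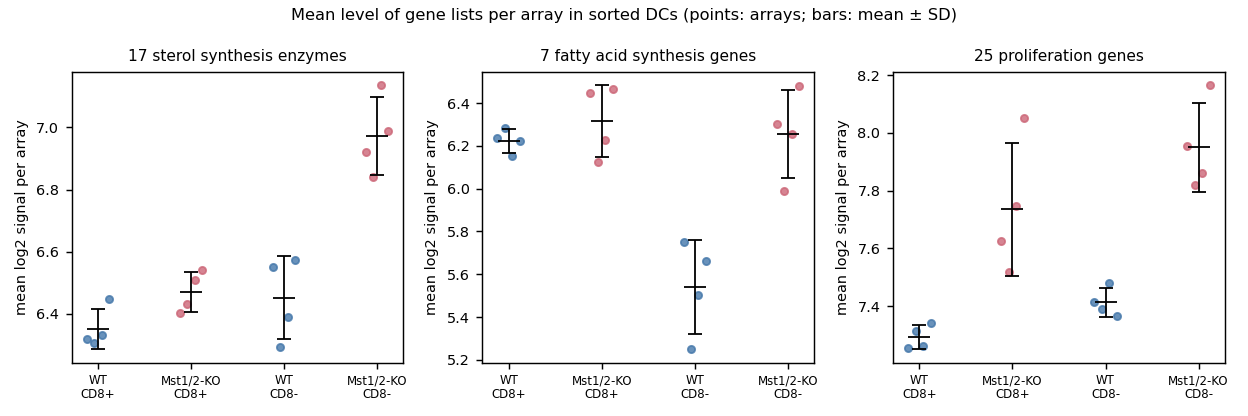
Mean log2 signal per array of the 17 sterol synthesis enzymes, the 7 fatty acid synthesis genes and 25 proliferation genes in the 4 sorted DC groups, with points for arrays and bars for the mean ± SD of 4 arrays. The sterol enzymes are highest in Mst1/2-KO CD8- DCs, the fatty acid genes are lowest in WT CD8- DCs, and the proliferation genes are higher in Mst1/2-KO in both subsets.

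The subsets differed in these genes in WT mice already, the fatty acid genes being higher in CD8+ DCs and the sterol genes divided. Of the 32 genes, 9 were called higher and 6 lower in WT CD8+ than in WT CD8- DCs, against 11% and 10% of all genes (21% in either direction). Fads1 read 6.74, 7.16, 6.64 and 6.83 in CD8+ and 5.39, 4.46, 5.50 and 5.47 in CD8- DCs. Its arrays were far apart (1.64 ± 0.214, 3.11-fold, limma adjusted p = 1.46e-05). Scd1 was higher by 1.24 ± 0.201, Fasn by 0.91 ± 0.101 and Elovl6 by 0.90 ± 0.174, which with Fads1 makes 4 of 7 fatty acid genes, none being lower. Hmgcs1 went the other way, with 7.24, 6.78, 7.16 and 7.32 in CD8+ DCs below all CD8- arrays (-0.82 ± 0.155, limma adjusted p = 0.000679).

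Along the sterol route, WT CD8+ DCs had higher Pmvk (0.54), Fdps (0.53), Nsdhl (0.59) and Ebp (0.25) and lower Mvd (-0.37), Cyp51 (-0.34) and Msmo1 (-0.51) besides Hmgcs1. Nsdhl read 7.82, 7.93, 7.82 and 7.68 in CD8+ against 7.05, 7.18, 7.54 and 7.14 in CD8- DCs, and Nr1h3 (-0.59) 4.53, 4.31, 4.37 and 4.83 against 5.13, 5.02, 4.87 and 5.40. The subsets did not overlap for either. Srebf2 (-0.32) was lower and Abcg1 (0.52) higher. Leaving out single WT arrays ended the call of Fdps (without CD8+ replicate 1, 2 or 4 or CD8- replicate 2 or 3, limma adjusted p = 0.0561 to 0.159) and of Cyp51 (without CD8+ replicate 1, 3 or 4 or CD8- replicate 1 or 4, 0.0596 to 0.135). It also ended that of Mvd (without CD8+ replicate 1 or CD8- replicate 4, 0.0509 and 0.0542), Ebp (without replicate 1 of either subset, 0.0553 and 0.0673) and Msmo1 (without CD8+ replicate 3, 0.0611). The labels do not say whether replicate numbers pair the arrays. In WT, deviations of same-numbered arrays from the group means correlated at 0.13 to 0.34. With the numbers as a block, Fdft1 (0.0204), Hsd17b7 (0.0349), Insig1 (0.0486) and Abca1 (0.0219) were called too, all lower in CD8+ DCs. Fdft1 was also called under 3 of the other settings and Abca1 under 1. Of the other sterol genes 7 of 22 were higher and 5 lower, among them Insig2 (0.94), the second SREBP retention factor, Scarb1 (0.93) and Npc2 (0.68), of lysosomal cholesterol export, and lower Npc1 (-1.16, limma adjusted p = 1.31e-08, but 0.323 with its other probe set), its partner. Of the other fatty acid genes 10 of 26 were higher and 3 lower, among them Hacd2 (1.27), of chain elongation, Agpat3 (1.27), of phospholipid synthesis, Lpin1 (1.14), and lower Fabp5 (-1.41), a fatty acid carrier.

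In Mst1/2-KO mice, the same contrast was mostly one of lower sterol genes in CD8+ DCs. Of the 32 genes 4 were called higher and 17 lower, against 9.93% and 9.3% of all genes (19.2% in either direction), and 11 of the 17 sterol enzymes were lower and 0 higher. Hmgcs1 read 7.14, 7.06, 7.35 and 7.29 in CD8+ against 8.60, 8.73, 9.12 and 8.75 in CD8- DCs. No array came within 1 log2 unit of the other group, and the difference was -1.59 ± 0.155 (3.01-fold lower, limma adjusted p = 4.61e-07). Msmo1 (-1.17), Fdft1 (-1.07), Mvd (-0.79), Cyp51 (-0.75), Sc5d (-0.68), Sqle (-0.57), Lss (-0.50), Hsd17b7 (-0.48), Tm7sf2 (-0.44) and Dhcr7 (-0.43) were lower too. Msmo1 read 5.55, 5.99, 6.09 and 5.80 against 7.12, 6.64, 7.33 and 7.01. Insig1 (-0.85) read 7.99, 7.79, 8.14 and 8.11 against 8.63, 8.87, 9.16 and 8.77, every CD8+ array of both genes being the lower. Also lower were Stard4 (-0.73), Srebf2 (-0.45), Fads2 (-0.89), Acly (-0.31) and Nr1h3 (-0.62). Fads1 (0.78), Scd1 (0.83) and Fasn (0.40) were called higher in CD8+ DCs here as well. Elovl6 (-0.29) and Fdps (-0.24), both called higher in WT CD8+ DCs, were not called here. Scap, the fourth called higher (0.27), was not called with its other probe set (limma adjusted p = 0.789). This contrast and the previous one share arrays with both genotype contrasts, so they are other views of the same 16 arrays.

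Some calls of the Mst1/2-KO subset contrast were lost on leaving out single arrays. They were those of Hsd17b7 (lost without CD8+ replicate 1, 2 or 4 or CD8- replicate 1, 3 or 4, limma adjusted p = 0.0634 to 0.119), Lss (without CD8+ replicate 1 or 2 or CD8- replicate 3 or 4, 0.0658 to 0.0854) and Tm7sf2 (without CD8+ replicate 1 or 4 or CD8- replicate 2, 0.0533 to 0.0676). Sqle was lost without CD8- replicate 3 (0.0549), Scap without CD8+ replicate 1 (0.0503) and Fads1 without CD8- replicate 2 (0.0576). Among the 4 sorted groups, Mst1/2-KO CD8- DCs had the highest mean for 22 of the 32 genes. The share over all genes was not taken. Of the other sterol genes 5 of 22 were higher and 6 lower in Mst1/2-KO CD8+ DCs, and of the other fatty acid genes 7 of 26 were higher and 5 lower.

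**Figure D4:**
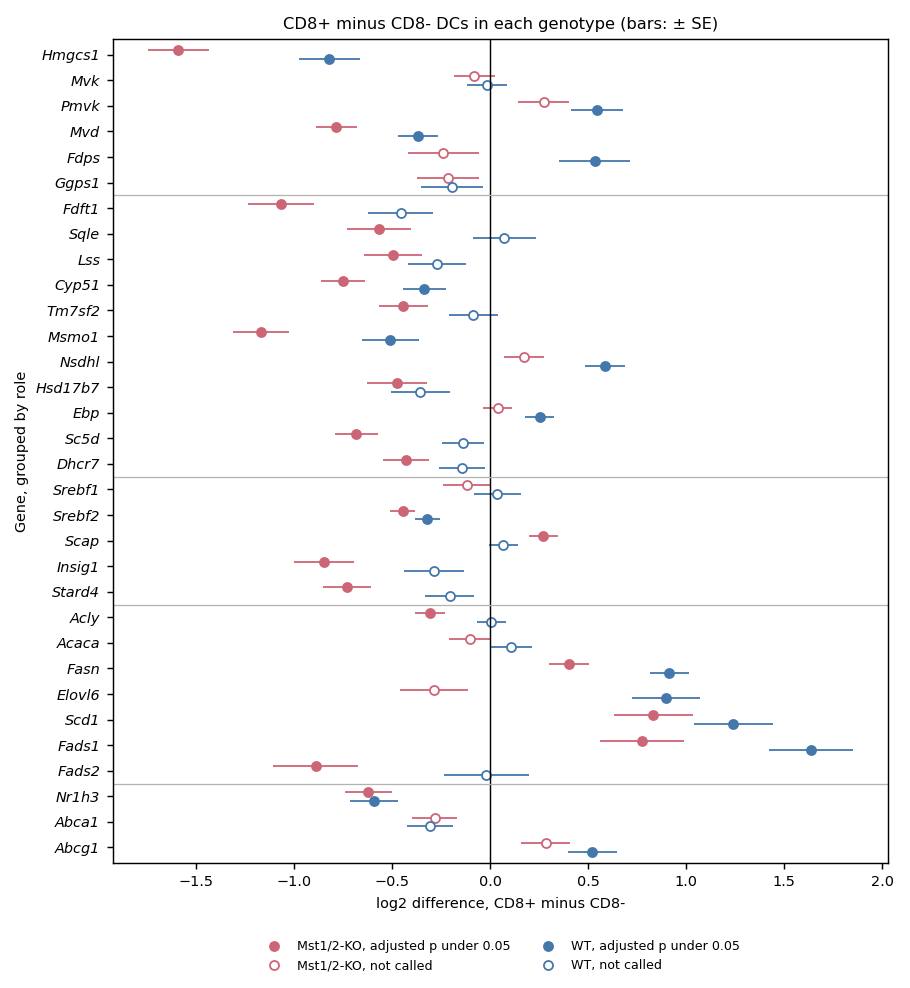
Log2 difference between CD8+ and CD8- DCs for the 32 genes in Mst1/2-KO (red) and WT mice (blue), bars giving the SE and filled points an adjusted p under 0.05. In Mst1/2-KO mice 17 genes are called lower in CD8+ DCs, against 6 in WT, and Fads1, Scd1 and Fasn are called higher in both genotypes.

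In total DCs, 0 of the 32 genes were called between 3 Mst1/2-KO and 4 WT arrays by limma, where 0.316% of all genes were called higher and 0.532% lower. At an unadjusted p under 0.05, 7 were higher and 0 lower, and 13.2% of all genes passed in either direction. In 7 of the 32 every Mst1/2-KO array lay above every WT array, and in 0 below, against 13.8% of all genes apart in either direction, and the median change was 0.151 against 0.0028. Elovl6 read 5.71, 5.50 and 5.73 in Mst1/2-KO and 5.03, 4.79, 5.20 and 5.14 in WT. Every Mst1/2-KO array was higher (0.60 ± 0.122, limma adjusted p = 0.0578, and called in 2 of 7 other settings, at 0.0413 and 0.0432). Fdps read 7.98, 7.64 and 8.08 against 7.40, 7.23, 7.45 and 7.38. It was apart in the same way (0.53 ± 0.12, limma adjusted p = 0.0794, and 0.0483 with a trended and robust variance).

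The other non-overlapping genes of total DCs were Fasn (0.49), Fads1 (0.41), Acly (0.30), Hsd17b7 (0.44) and Srebf1 (0.17). Fads2 differed by 0.47 ± 0.309, with WT arrays from 4.39 to 6.03, and Hmgcs1 by 0.26 ± 0.171, and the arrays of both overlapped between genotypes. The 17 sterol enzymes averaged 6.53 to 6.76 in Mst1/2-KO and 6.37 to 6.70 in WT. The lowest Mst1/2-KO array, replicate 2, was the lowest of its group for 13 of the 17. Of the other sterol genes 1 of 22 rose, Scarb1 (0.67, limma adjusted p = 0.0465), and its call was lost without any 1 of the 7 arrays (limma adjusted p = 0.0509 to 0.169) and with the replicate number as a block (0.111). Of the other fatty acid genes none of 26 was called. In these arrays 3 of 14 CD8- DC markers fell and 1 of 15 CD8+ DC markers rose, with summed signals of 11.04 to 11.44 against 11.55 to 11.88 and of 13.77 to 13.88 against 13.33 to 13.71. None of 25 proliferation genes was called (median 0.453), and 1 of 15 macrophage and monocyte markers fell. Their part in the lipid gene values was not tested.

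After anti-CD40, DCs labelled Rag1-/-/p38-/- were compared with Rag1-/- DCs in experiment 1. None of the 32 genes was called by limma, and 0% of all genes were, while 8.41% of all genes passed an unadjusted p under 0.05. Of the 32, 6 were lower and 2 higher at that unadjusted level, all 8 of them sterol enzymes. Sqle read 6.51, 6.54 and 6.59 in Rag1-/-/p38-/- and 6.84, 7.08, 7.30 and 7.48 in Rag1-/- DCs. The arrays did not overlap, and the difference was -0.63 ± 0.146 (limma adjusted p = 0.409). Fdps read 6.88, 7.40 and 7.08 against 7.59, 7.59, 8.18 and 8.26, again without overlap (-0.79 ± 0.218, limma adjusted p = 0.494). Hmgcs1, at 7.17, 7.39 and 7.69 against 7.62, 7.94, 8.24 and 8.36, overlapped by 1 array (-0.63 ± 0.203).

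Not all sterol enzymes leaned the same way in experiment 1. Dhcr7 (0.33) and Nsdhl (0.21) were higher on every Rag1-/-/p38-/- array, and in all 4 of the 32 genes did not overlap, against 7.48% of all genes. Hsd17b7 (-0.36), Cyp51 (-0.25) and Msmo1 (-0.16) were the others at an unadjusted p under 0.05. The fatty acid genes gave no such difference, Elovl6 differing by -0.03, Fads2 by -0.04 and Fads1 by 0.40 (limma adjusted p = 0.605). Replicate 1 was the lowest array of its own group for 12 of the 17 sterol enzymes in Rag1-/-/p38-/- and for 11 in Rag1-/- DCs. Values in this experiment often repeat exactly: 34.3% of all genes had equal values on at least 2 of the 4 Rag1-/- arrays. On the 3 Rag1-/-/p38-/- arrays 24% had such values. Stard4 read 5.45 on all 4 Rag1-/- arrays, and Dhcr7 read 5.39 on all of them but replicate 1. Equal values narrow the spread between arrays, so the SE of such genes can be too small, which was not tested. In the sorted DCs no group had more than 0.203% of genes with equal values. Of 10 neutrophil markers all were lower in Rag1-/-/p38-/- (median -1.33, summed signal 8.25 to 9.79 against 9.92 to 10.68, none called), and their part was not tested.

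Experiment 2 set 2 anti-CD40 Rag1-/- arrays against single arrays, with the spread taken from the arrays of both experiments, so that the lone array is assumed to vary like the others. Against the non-stimulated Rag1-/- array, 0 of the 32 genes were called by limma, where 0.0361% of all genes were (0.0271% higher, 0.00902% lower), and 2 passed an unadjusted p under 0.05, against 13.1% of all genes. These were Abca1 (4.29 and 4.48 after anti-CD40, 4.79 without, -0.41 ± 0.154, limma adjusted p = 0.314) and Cyp51 (-0.40 ± 0.167). The median change was -0.06. Insig1 read 8.38 and 8.43 against 8.74 (-0.33), and Hmgcs1 7.63 and 7.86 against 7.49 (0.26). In the same arrays 9 of 10 neutrophil markers were higher after anti-CD40 (summed signal 11.47 to 11.69 against 10.28) and 23 of 25 proliferation genes (median 0.388), none of them called. Their part was not tested.

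Against the lone WT anti-CD40 array, most sterol enzymes read lower on the Rag1-/- arrays. Over all genes, 48.3% read higher there. None of the 32 genes was called by limma, against 0.365% of all genes (0.243% higher, 0.122% lower), but 15 of 17 sterol enzymes were below 0, and 9 of the 32 genes, all sterol enzymes, were lower at an unadjusted p under 0.05, which 14% of all genes passed in either direction. Msmo1 read 6.16 and 6.34 in Rag1-/- and 6.76 in WT DCs (-0.52 ± 0.118, limma adjusted p = 0.117). Sqle read 6.60 and 6.92 against 7.35, and Hmgcs1 7.63 and 7.86 against 8.20. The control genes, the fatty acid genes and the efflux genes gave 0 at that level, with Fasn at -0.28 and Elovl6 at 0.07. All 10 neutrophil markers were higher in these Rag1-/- arrays (summed signal 11.47 to 11.69 against 9.61) and all 9 NK cell markers were higher (summed signal 9.89 to 10.11 against 9.06), while 3 of 10 B cell markers and 1 of 10 T cell markers (Cd3e) were called lower. Their part was not tested, and with 1 WT array the genotype and that array cannot be told apart. Both comparisons of experiment 2 share the Rag1-/- anti-CD40 arrays.

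**Figure D5:**
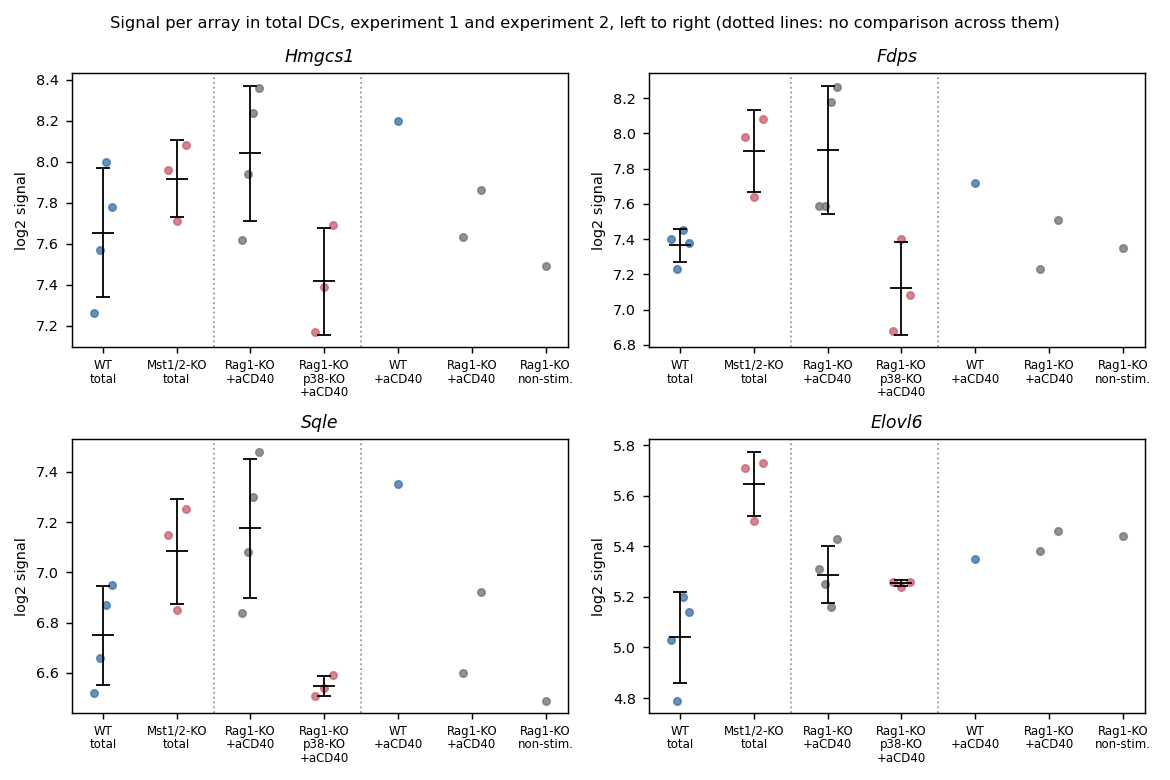
Log2 signal of 4 genes on each array of total DCs, experiment 1 and experiment 2, separated by dotted lines because values are not comparable across them, with points for arrays and bars for the mean ± SD where a group has 3 or 4 arrays. Elovl6 and Fdps are higher on all 3 Mst1/2-KO total DC arrays, and Sqle and Fdps are lower on all 3 Rag1-/-/p38-/- arrays.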

How the data were processed

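Sorted splenic DC RNA was amplified, labelled and hybridised, per the labels' protocols. The deposited values are log2 signals of 41155 probe sets on 34 arrays, as normalized by the authors. The submitters' processing notes name RMA and Partek 6.6. Each probe set carries a shift of its own in each experiment, so comparisons stay within an experiment. Probe sets with 1 gene symbol (23521) gave 22180 genes, of several per gene the one with the highest mean. The labels gave the groups. limma 3.58.1 (R 4.3.3, lmFit and eBayes) fitted group means on the sorted arrays, the total DC arrays, those of experiment 1, or those of experiments 1 and 2, with a Benjamini-Hochberg adjusted p under 0.05 over all genes, after tests on simulated data. The members, motifs and gene lists were chosen with earlier results of these data known. The text accounts for all members, with array values mainly for called members of largest change in each role, up to 4 called genes of each further pathway list and up to 2 of each marker list, with more only where the text says they were named after their values were seen. The number of arrays limits the precision. Alternatives were other normalizations, filters, variance models, array weights, probe sets, fewer arrays in the fit, replicate blocks and leaving out each array. Whether numbers pair arrays was checked by asking if every same-numbered pair's deviations from the group means correlated above 0.1. This held for WT CD8+ and CD8- DCs (0.13 to 0.34) and for no other pair of groups. Mst1/2-KO CD8+ and CD8- DCs gave 0.09 to 0.21, though the replicate blocks used their numbers too. The main fits used no block, also for WT CD8+ and CD8- DCs.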

Additional observations from a re-analysis of the deposited data

Results flagged for a closer look

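In groups of 4 arrays, 1 array stood far from the other 3 (by Dixon's test) in 11 of 192 gene and group pairs, and chance gives about 1 in 20. Among sterol enzymes, these were Mvd at 5.55 in WT total DCs (replicate 1, the next array at 6.16), Ggps1 at 7.34 in Mst1/2-KO CD8- DCs (replicate 2, next 7.56) and Fdft1 at 7.08 in Mst1/2-KO CD8+ DCs (replicate 4, next 6.74). Lss stood at 3.78 in WT CD8+ DCs (replicate 1, next 4.32), Cyp51 at 7.89 in Mst1/2-KO CD8- DCs (replicate 3, next 7.48) and Ebp at 6.61 in WT CD8+ DCs (replicate 1, next 6.44). In the Rag1-/- arrays of experiment 1, Tm7sf2 stood at 5.69 (replicate 3, next 5.57) and Dhcr7 at 5.03 (replicate 1, the other 3 at 5.39). The others were Srebf1 at 5.83 (replicate 2, next 5.64) and Acaca at 5.89 (replicate 3, next 6.15) in WT CD8+ DCs, and Fads1 at 4.46 in WT CD8- DCs (replicate 2, next 5.39). Elovl6 had a genotype effect that differed between CD8- and CD8+ DCs, by 1.19 (limma adjusted p = 0.0348).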

How the results depend on the processing

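No called gene reversed its direction under any alternative run. Of the 18 genes called in CD8- DCs between genotypes, 14 to 20 were called under the other settings, 18 with the replicate number as a block, and 10 to 18 on leaving out single arrays. In CD8+ DCs, where 0 were called, 1 was called with genes above the median level only, with array weights, with only the 8 arrays compared and with the replicate block, and 0 to 1 on leaving out single arrays. For the difference between subsets, 3 were called with the replicate block and 0 to 1 on leaving out single arrays, against 1. In total DCs, 1 was called with genes above the median level only, with a trended and robust variance and with array weights, against 0, and 0 with the replicate block. Between subsets, the WT count ranged from 11 to 15 on leaving out arrays and was 19 with the replicate block, against 15, and the Mst1/2-KO count ranged from 17 to 22 and was 22 with the block, against 21. Cyclic loess gave 7 higher and 7 lower in WT, against 9 and 6. In experiments 1 and 2 the count was 0 in every alternative run. Msmo1 lost its call in CD8- DCs under 4 of 9 settings, the replicate block among them (limma adjusted p = 0.0546 to 0.0781), and Fdft1 (0.0537), Stard4 (0.0673) and Fads1 (0.0651) with only the 8 arrays compared. Pmvk gained one under 4 of 9 settings, the replicate block among them (0.0127 to 0.041). Where a call moved, the cause was not tested.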
